A study of Homo sapiens with 6 samples.

Results

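Fibronectin, the tenascins and other matricellular proteins were followed in CCD18Co cells, an established line of normal human colon fibroblasts, after silencing of *LTBP2*. The 10 genes were taken by symbol from the deposited count table, which lists 60663 genes, and comprised *FN1*, *TNC*, *TNXB*, *POSTN*, *SPARC*, *SPARCL1*, *SMOC1*, *SMOC2*, *VTN* and *TGFBI*. Cells were transfected for 6 h with an siRNA pool against *LTBP2* (siLTBP2) or with control siRNAs that target no gene (siNT), and were harvested 48 h after transfection. There were 3 libraries per group, all from this 1 line, and the labels do not say whether replicates came from separate cultures, so p-values measure the spread between these libraries only. With a single pool against *LTBP2*, the loss of *LTBP2* and other actions of that pool cannot be told apart, and because these are bulk libraries, fewer cells of a kind and less RNA per cell cannot be told apart either.

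Fibronectin, encoded by *FN1*, is a large secreted glycoprotein that cells assemble into fibrils through integrins. These fibrils serve as a scaffold for collagens and for latent TGF-beta complexes. Matricellular proteins are secreted into the matrix but mostly tune adhesion, growth factor access and matrix assembly. Tenascin-C (*TNC*) is known from wound beds and tumor stroma, tenascin-X (*TNXB*) from dermis and other collagen-rich tissue, and periostin (*POSTN*) and TGFBI are related proteins with fasciclin domains, known as TGF-beta targets. SPARC binds collagen, SPARCL1 is its close relative, SMOC1 and SMOC2 are modular calcium-binding proteins of the same family, and vitronectin (*VTN*) is an adhesion protein made mainly by liver and abundant in serum.

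The gene counts of a library summed to between 44663424 and 53576899. *LTBP2* itself fell from 23.1 ± 1.89 to 7.03 ± 1.39 CPM (counts scaled to 1 common library total after TMM normalization, SD, n = 3), with no overlap between the groups. All 9 fibroblast markers examined were present in every group, with a summed level between 9933 and 14410 CPM. Among them only *PDGFRB* had an adjusted p below 0.05, and it was lower in siLTBP2 (log2 fold change -0.60, adjusted p = 0.00252, edgeR). Defining markers of other cell types were at or near 0: *EPCAM* had at most a mean of 0.0124 CPM, *KRT20* and *SOX10* had no count in any library, *MYH11* and *DES* averaged below 0.1 CPM in both groups, and the 5 immune markers summed to at most 0.574 CPM. The summed epithelial list was higher in siLTBP2 (85.6 to 99.3 CPM) than in siNT (40.2 to 52.6 CPM), of which *KRT18* and *KRT8* made up nearly all. Their log2 fold changes were 1.15 for *KRT18* (adjusted p = 0.000237, edgeR) and 0.32 for *KRT8* (adjusted p = 0.0855, edgeR). The summed smooth muscle list was higher too (333.5 to 355.1 against 195.8 to 216.3 CPM), which was almost entirely *SMTN* (log2 fold change 0.79, adjusted p = 0.00024, edgeR). *LMOD1*, the other smooth muscle marker tested, fell from 12.6 ± 3.35 to 7.47 ± 2.34 CPM (SD, n = 3, log2 fold change -0.75, adjusted p = 0.0485, edgeR). The endothelial list summed to between 59.9 and 83.5 CPM, nearly all of it *TEK*, and *CDH5* averaged at most 0.0127 CPM.

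Of the 10 genes, *FN1* and *TNC* were higher after *LTBP2* silencing, and no other member passed the test. Their log2 fold changes were 0.76 for *FN1* and 1.52 for *TNC*. Genes with an adjusted p below 0.05 in edgeR's quasi-likelihood test are called changed here, and those with an adjusted p below 0.01 and more than a 2-fold change are called deregulated. Of the 7 members with enough counts to be tested, 2 were changed, both upward, where 9.76% of the 16920 genes tested were changed upward and 9.51% downward (19.3% in all). *TNC* was also deregulated, as were 2.57% of all genes tested (1.29% higher and 1.27% lower). With so few members, these counts only describe them. The median log2 fold change of the 7 members was 0.06, against -0.01 over all genes tested.

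**Figure D1:**
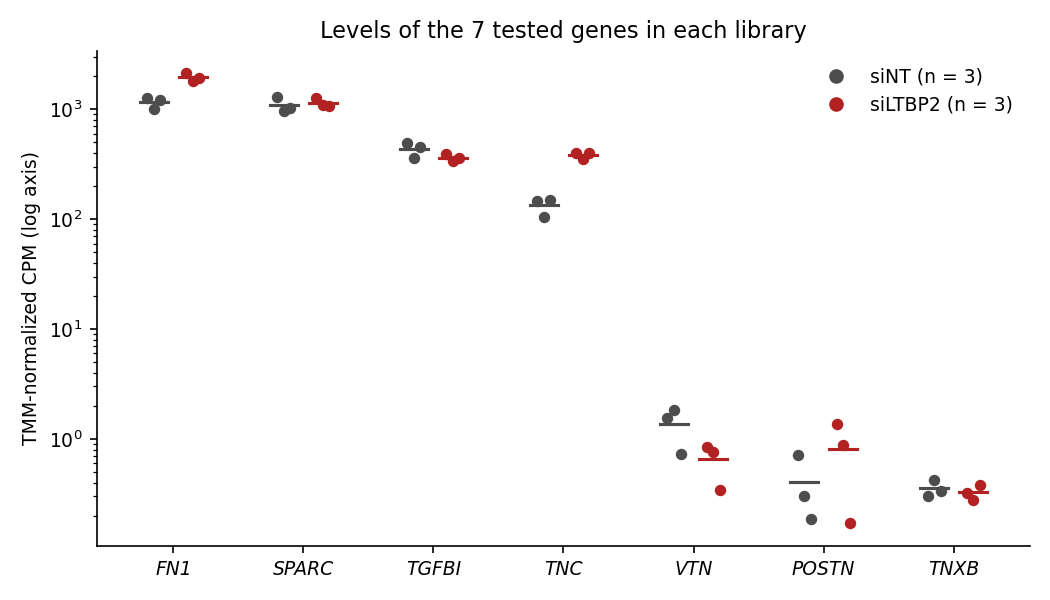
TMM-normalized CPM on a log axis for the 7 tested genes, 1 point per library, with siNT in gray, siLTBP2 in red and the mean of 3 libraries as a line. The *FN1* and *TNC* points of siLTBP2 lie above every siNT point, while those of the other 5 genes overlap. CPM is not divided by gene length, so the order along the horizontal axis does not rank the genes by transcript number.

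**Figure D2:**
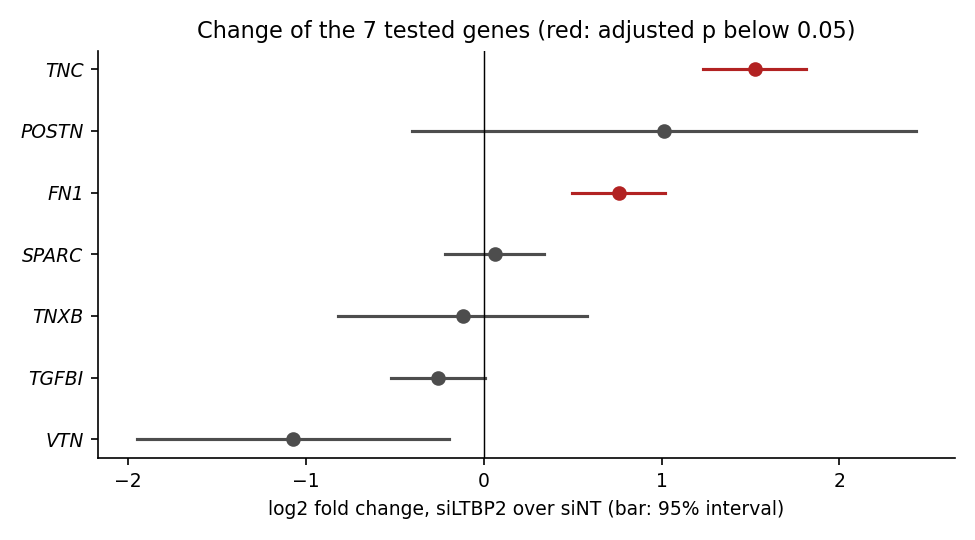
Log2 fold change of siLTBP2 over siNT for the 7 tested genes, with 95% intervals from edgeR's quasi-likelihood fit as bars and genes with an adjusted p below 0.05 in red. The intervals of *TNC* and *FN1* lie above 0, and that of *POSTN* spans from -0.40 to 2.43.

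*TNC* (ENSG00000041982) is a gene of 28 exons (canonical transcript) on chromosome 9, 115019575 to 115118207, minus strand, in GRCh38. Tenascin-C forms many-armed oligomers that bind fibronectin and weaken cell spreading on it. Its level was 146, 105 and 149 CPM in siNT replicates 1 to 3 and 397, 354 and 400 CPM in siLTBP2 replicates 1 to 3. Every siLTBP2 library was thus above every siNT library, by a wide margin compared with the spread in either group (133 ± 24.4 and 383 ± 25.7 CPM, SD, n = 3). The fold change was 2.87, that is 1.52 on the log2 scale (standard error 0.13, 95% interval 1.23 to 1.81, adjusted p = 7.11e-05, edgeR). *TNC* ranked 55 by p-value among all genes tested. Without any 1 library, its log2 fold change stayed between 1.38 and 1.61. Of the 668 tested genes with a mean CPM at least that of *TNC*, only 4, *TNC* included, had a log2 fold change as high.

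*FN1* (ENSG00000115414) has 46 exons in its canonical transcript (chromosome 2, 215360440 to 215436073, minus strand). The counts are per gene, so the splice forms of fibronectin (with or without its extra domains) are not told apart. *FN1* was at 1269, 1009 and 1215 CPM in siNT and at 2131, 1830 and 1946 CPM in siLTBP2. Here too the groups did not overlap, as was the case with siLTBP2 higher in 18.7% of all genes tested. The mean rose from 1164 ± 137 to 1969 ± 152 CPM (SD, n = 3), a fold change of 1.69 and a log2 fold change of 0.76 (standard error 0.12, 95% interval 0.50 to 1.02, adjusted p = 0.00161, edgeR). The change was under 2-fold, so *FN1* was not deregulated by the stricter call. Among the 33 genes with a mean CPM at least that of *FN1*, itself included, *FN1* had the highest log2 fold change. Of these 33 genes, 3 were changed upward and 5 downward, where 9.76% and 9.51% of all genes tested were. Without any 1 library, its value ranged from 0.67 to 0.82.

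Because *FN1* and *TNC* both rose while *SPARC* did not, the promoter windows of these 3 genes are shown (RefSeq, GRCh38.p14, 250 bases before to 50 bases after the start, minus strand, 5′ to 3′). They are chr2:215436019-215436318 for *FN1*, chr9:115118108-115118407 for *TNC* and chr5:151686866-151687165 for *SPARC*. Capitals mark matches, on either strand, to words searched in all windows. One is TGACGTCA, the cyclic AMP response element. A TATA-like word was searched as ATATAA. For SMAD proteins the word searched was CAGACA. The core word of sites bound by TEAD proteins, the partners of YAP, was searched as GGAATG. A core found in many NF-kappaB sites is the palindrome GGAATTCC, and the word of activator protein 1 was searched as TGANTCA. None of the marked matches overlap. The Sp1 box GGGCGG, held by 45.0% of all windows, was searched too and is not marked, with 6 matches in *FN1*, 1 in *TNC* and 0 in *SPARC*.
FN1: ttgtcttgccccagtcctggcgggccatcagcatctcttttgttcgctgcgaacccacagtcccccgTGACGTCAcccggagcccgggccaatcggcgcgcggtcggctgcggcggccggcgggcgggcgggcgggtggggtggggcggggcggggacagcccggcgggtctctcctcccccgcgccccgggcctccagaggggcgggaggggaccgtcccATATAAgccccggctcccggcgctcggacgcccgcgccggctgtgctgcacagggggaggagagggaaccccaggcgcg
TNC: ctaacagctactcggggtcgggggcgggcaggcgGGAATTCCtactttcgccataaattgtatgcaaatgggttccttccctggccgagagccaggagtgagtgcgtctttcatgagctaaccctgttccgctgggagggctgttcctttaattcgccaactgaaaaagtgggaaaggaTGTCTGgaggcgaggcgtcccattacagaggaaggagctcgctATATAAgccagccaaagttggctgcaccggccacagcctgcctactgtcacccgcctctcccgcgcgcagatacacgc
SPARC: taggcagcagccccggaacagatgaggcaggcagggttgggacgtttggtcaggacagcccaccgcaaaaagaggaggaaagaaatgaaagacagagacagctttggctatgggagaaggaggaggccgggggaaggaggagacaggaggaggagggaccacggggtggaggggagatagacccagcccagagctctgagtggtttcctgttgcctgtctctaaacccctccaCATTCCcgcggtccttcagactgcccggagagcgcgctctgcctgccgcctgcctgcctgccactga

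*FN1* held ATATAA just before the start at -29 and *TNC* at -28 (position of the first base relative to the start site). So did *POSTN*, which was not called changed, at -30. The word occurs anywhere in 8.26% of 35116 RefSeq promoter windows of this length, and in 4 of the 10 members, *SPARCL1* being the other. How many windows hold it just before the start was not counted. The *FN1* window alone among the members held TGACGTCA (1.85% of all windows), at -183. *TNC* held GGAATTCC at -216, as *SMOC1* did at -22 (0.515% of all windows), and the complement of CAGACA at -71 (16.9%). *SPARC* held the complement of GGAATG at -17, *VTN* held GGAATG at -104, and *TNXB*, which has a pair of windows in RefSeq, held it in the downstream one at -56 (14.0% of all windows). TGANTCA was found only in *POSTN* among the members (7.71% of all windows). The *FN1* window had a GC content of 76.7%, that of *TNC* 57.3% and that of *SPARC* 61.3%, with a median of 58.7% over all windows. These matches describe the letters only.

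*SPARC* (ENSG00000113140, chromosome 5, 151661096 to 151686975, minus strand) was an abundant member whose level moved little. It was at 1283, 976 and 1033 CPM in siNT and at 1274, 1086 and 1075 CPM in siLTBP2. The groups overlapped, with a log2 fold change of 0.06 (95% interval -0.22 to 0.34, adjusted p = 0.782). Without siNT replicate 2 or siLTBP2 replicate 1 the estimate was slightly below 0 (-0.02 in both cases).

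*TGFBI* (ENSG00000120708, chromosome 5, 136028988 to 136063818, plus strand), named for its induction by TGF-beta, was at 494, 360 and 450 CPM in siNT and at 392, 342 and 358 CPM in siLTBP2. The siLTBP2 values were the lower ones apart from siNT replicate 2, which lay among them. Its log2 fold change was -0.26 (95% interval -0.52 to 0.01, adjusted p = 0.172, edgeR). Without siNT replicate 2 it was -0.38 with an adjusted p of 0.0374. With the replicate block *TGFBI* passed too (-0.25, adjusted p = 0.0113, edgeR).

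Ratios of counts within a library do not depend on the scaling between libraries, and 6 such ratios between members were compared after the fold changes had been seen. The number of *FN1* counts per *TGFBI* count was 2.57, 2.80 and 2.70 in siNT and 5.44, 5.36 and 5.43 in siLTBP2. The *FN1* to *SPARC* ratio rose from 1.07 ± 0.0979 to 1.72 ± 0.0757 and the *TNC* to *FN1* ratio from 0.114 ± 0.0092 to 0.195 ± 0.00969 (SD, n = 3). The *TGFBI* to *SPARC* ratio was 0.397 ± 0.0347 in siNT and 0.318 ± 0.0133 in siLTBP2 (SD, n = 3). None of the 6 ratios overlapped between the groups, and each gave p = 0.1 in a two-sided exact permutation test (0.1 after Benjamini-Hochberg adjustment over the 6), the smallest p that 3 libraries against 3 allow. The log2 ratio of *TNC* to *FN1* was 0.78 higher in siLTBP2 than in siNT. These ratios share genes with each other and are not separate findings.

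**Figure D3:**
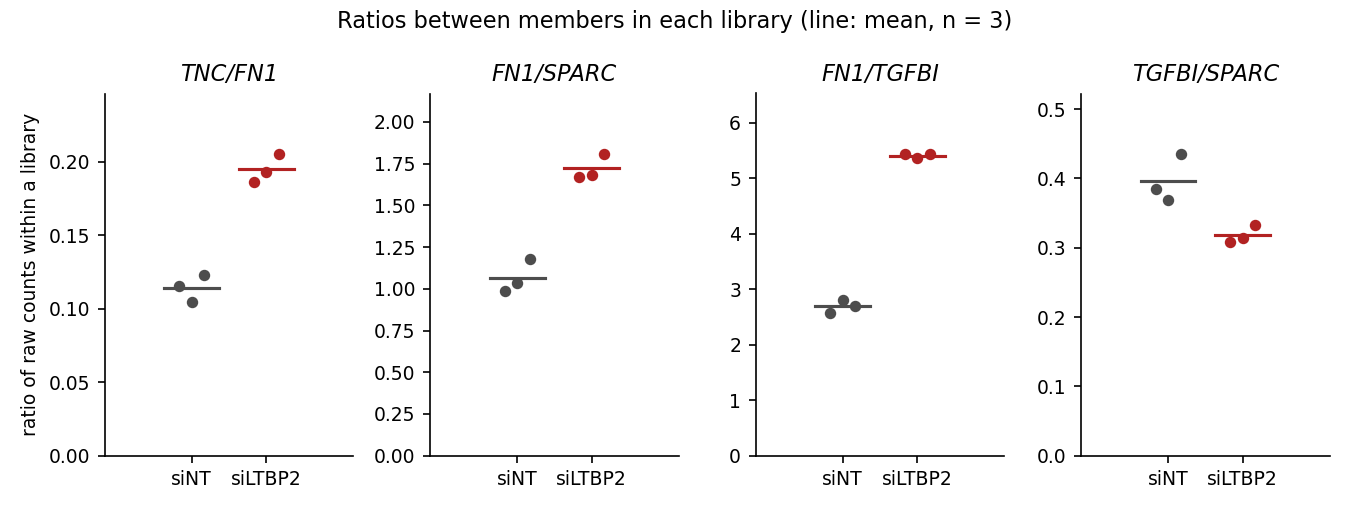
Ratios of raw counts between pairs of members within each library, on linear axes from 0, with siNT in gray, siLTBP2 in red and the mean of 3 libraries as a line. The *FN1* to *TGFBI* ratio lies between 2.57 and 2.80 in siNT and between 5.36 and 5.44 in siLTBP2.

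The 10 genes took 0.286 ± 0.0288% of all counts in siNT and 0.381 ± 0.0262% in siLTBP2 (SD, n = 3), without overlap (two-sided exact permutation test, p = 0.1). As a share of all TPM (levels divided by union exon length and scaled to the same total in every library), they took 0.143 ± 0.0231% and 0.167 ± 0.0168% (SD, n = 3), and here the groups overlapped (two-sided exact permutation test, p = 0.3). *FN1* made up 41.2 ± 1.48% of their counts in siNT and 51.0 ± 0.446% in siLTBP2, while the part of *SPARC* was 38.7 ± 2.15% and 29.6 ± 1.03% (SD, n = 3). Since long transcripts yield more reads, the order of the members was read after division by transcript length. Shares of counts and rankings by CPM given here are not divided by length. In TPM over the canonical transcript, *SPARC* was the highest member in both groups, at 765 ± 129 in siNT and 782 ± 89.0 in siLTBP2. Next in siNT were *TGFBI* (385 ± 64.4) and *FN1* (334 ± 41.7), whose ranges overlapped, followed by *TNC* (37.7 ± 6.90). In siLTBP2 *FN1* (552 ± 48.7) was above *TGFBI* (316 ± 26.0) in every library, and *TNC* reached 106 ± 6.84 TPM (SD, n = 3). With the union of all exons as length, *FN1* (257 ± 33.5) was above *TGFBI* (214 ± 37.1) in siNT as well, with overlapping ranges, so the order of these 2 genes in siNT depends on the length used. *VTN* came next, at 2.02 ± 0.865 TPM in siNT, then *POSTN* at 0.295 ± 0.21 and *TNXB* at 0.0649 ± 0.0115 TPM by canonical length.

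Vitronectin was a scarce transcript. *VTN* (ENSG00000109072, chromosome 17, 28367284 to 28373091, minus strand) had 71, 90 and 39 counts in siNT and 37, 36 and 18 in siLTBP2, or 1.53, 1.82 and 0.723 against 0.849, 0.761 and 0.342 CPM. The third siNT library lay within the range of the siLTBP2 group. The log2 fold change was -1.07 (95% interval -1.95 to -0.19, adjusted p = 0.0856, edgeR), so *VTN* did not pass. It passed under the likelihood ratio test, in DESeq2, with no low-count filter, with the replicate block and without siNT replicate 3. The gene lies inside the span of *SARM1*, a regulator of axon degeneration on the opposite strand, with which it shares no exon base. *SARM1* fell from 50.1 ± 3.56 to 19.7 ± 1.56 CPM (SD, n = 3, log2 fold change -1.35, adjusted p = 3.17e-05, edgeR). Per 100 *SARM1* counts there were 2.85, 3.90 and 1.45 *VTN* counts in siNT and 4.17, 3.66 and 1.91 in siLTBP2, which overlapped (two-sided exact permutation test, p = 0.6). How HTSeq was set for strand is not given, and a part of reads from *SARM1* in the *VTN* value was not tested. On the same strand as *VTN*, the coding gene ENSG00000273171, at 0 CPM in both groups, shares 329 exon bases with it. Whether that overlap lowered the *VTN* counts was not tested.

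**Figure D4:**
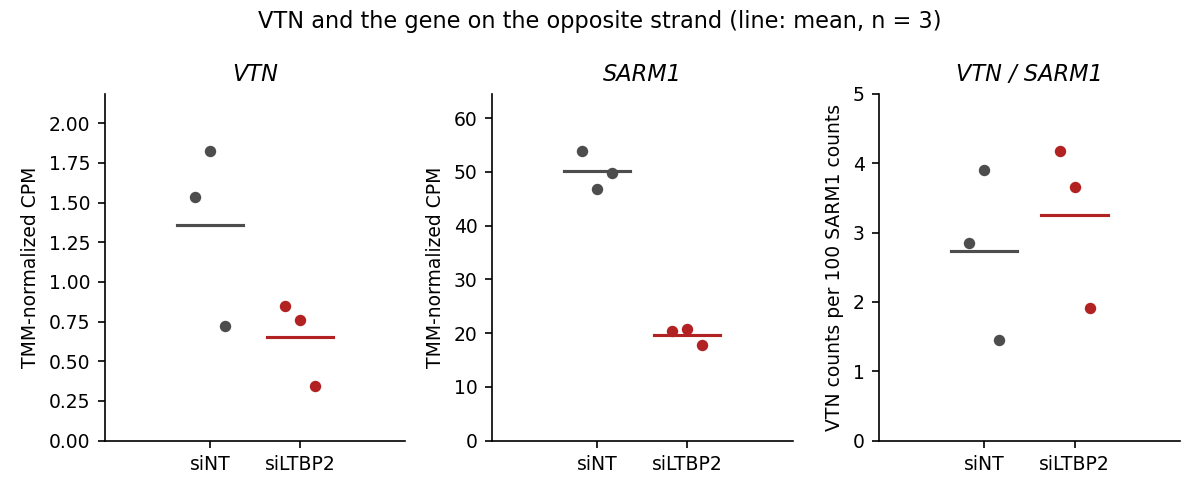
CPM of *VTN* (left) and *SARM1* (middle), and *VTN* counts per 100 *SARM1* counts (right), 1 point per library on linear axes from 0, with the mean of 3 libraries as a line. The 3 *SARM1* points of siLTBP2 lie below those of siNT, the *VTN* points overlap, and the ratio had a mean of 2.74 in siNT and 3.25 in siLTBP2 with overlapping points.

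*POSTN* (ENSG00000133110, chromosome 13, 37562583 to 37598844, minus strand), a marker of matrix-producing fibroblasts in many tissues, was nearly silent in this line. It had 33, 15 and 10 counts in siNT and 60, 42 and 9 in siLTBP2, so that both the highest and the lowest count were in siLTBP2. The estimate of 1.01 on the log2 scale had a 95% interval from -0.40 to 2.43 (adjusted p = 0.312, edgeR). The estimate rested on single libraries, from 0.40 without siLTBP2 replicate 1 to 1.70 without siNT replicate 1. *POSTN* passed without siLTBP2 replicate 3 (1.52, adjusted p = 0.0343), with the replicate block (0.95) and with no low-count filter (1.00). *TNXB* (ENSG00000168477, chromosome 6, 32041153 to 32115334, minus strand) had 14, 21 and 18 counts in siNT and 14, 13 and 20 in siLTBP2, with a log2 fold change of -0.12 (95% interval -0.82 to 0.58, adjusted p = 0.841, edgeR). Its value is uncertain, since a near copy, the pseudogene *TNXA*, can share its reads, and since *ATF6B*, at 43.0 and 43.9 CPM, shares 71 exon bases with it on the same strand.

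The remaining 3 members were below the filter and were not tested. *SMOC1* had 4 counts over the siNT libraries and 5 over the siLTBP2 libraries, *SPARCL1* had 2 counts, both in siNT replicate 2, and *SMOC2* had none in any library. A count of 0 allows up to 3 counts, or 0.056 to 0.0672 CPM depending on the library, and covers counting error only. SPARCL1, SMOC1 and SMOC2 are thus members of the SPARC family whose transcripts were at the detection limit in CCD18Co with either siRNA pool, beside an abundant *SPARC*.

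Several receptors of these proteins changed, in both directions. Of 18 genes listed, 13 were tested, of which 6 rose, 3 fell and 4 did not pass (beside 9.76% higher and 9.51% lower over all genes tested), with a median log2 fold change of 0.19 (-0.01 over all genes tested). *ITGB1*, the beta chain of the classical fibronectin receptor, rose from 715 ± 43.8 to 1335 ± 17.7 CPM (SD, n = 3, log2 fold change 0.90, adjusted p = 0.000176, edgeR). Its fibronectin-binding partner *ITGA5* was at 353 ± 49.8 and 340 ± 27.3 CPM (SD, n = 3, -0.05, adjusted p = 0.8, edgeR). The chains of the RGD-binding vitronectin receptor differed in sign, with *ITGB3* at 0.49 (adjusted p = 0.0131) and *ITGAV* at -0.25 (adjusted p = 0.0461). *ITGA8*, whose product binds fibronectin and tenascin-C, fell by 1.13 on the log2 scale (adjusted p = 0.0212). *PLAUR*, the urokinase receptor that also binds vitronectin, was the 1 deregulated receptor, rising from 44.3 ± 7.49 to 123 ± 20.9 CPM (SD, n = 3, log2 fold change 1.47, adjusted p = 0.000134, edgeR).

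Among the other receptors, the heparan sulfate proteoglycan *SDC1* rose from 80.7 ± 9.94 to 160 ± 22.6 CPM (SD, n = 3, log2 fold change 0.99), and *SDC2* fell by 0.43 on the log2 scale, while *SDC4*, a co-receptor in fibronectin adhesion, was at 210 ± 9.16 and 217 ± 2.56 CPM and did not pass. *ANXA2*, a tenascin-C-binding annexin, had a log2 fold change of 0.48 and *EGFR*, which the EGF-like repeats of tenascin-C can bind, one of 0.52. The calls of *ITGAV* were lost whichever library was left out (-0.27 to -0.23), that of *ITGA8* without siNT replicate 1 (-1.04) or 2 (-1.05), that of *ITGB3* without siNT replicate 1 (0.44), and that of *ANXA2* without siNT replicate 3 or siLTBP2 replicate 2 (0.45 in both cases). *ITGA9*, *ITGB6*, *ITGB8*, *PTPRB* and *PTPRZ1* were below the filter.

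Of 23 genes of related matrix families, 12 were tested, and 3 rose and none fell at an adjusted p below 0.05 (edgeR), beside 9.76% higher and 9.51% lower over all genes tested, with a median log2 fold change of 0.37 (-0.01 over all genes tested). Osteopontin (*SPP1*), an RGD-containing matricellular protein, rose from 2.82 ± 0.495 to 7.64 ± 1.93 CPM (SD, n = 3, log2 fold change 1.44, adjusted p = 0.00114, edgeR). *EFEMP2*, a fibulin needed for elastic fibers, had a log2 fold change of 0.46 (adjusted p = 0.0027) and *CCN4* one of 0.50 (adjusted p = 0.0445), whose call was lost with upper-quartile factors (0.49), total counts (0.46) and the filter of 1 CPM in 3 libraries (0.50), and in every fit without 1 library apart from that without siLTBP2 replicate 3 (0.38 to 0.65). The most abundant relatives did not pass: *CCN1* was at 380 ± 41.1 and 324 ± 56.4 CPM, *FSTL1*, a SPARC family member, at 342 ± 11.2 and 416 ± 44.0 CPM (SD, n = 3, log2 fold change 0.29, passing in DESeq2 and the likelihood ratio test), and *CCN2* at 202, 222.1 and 223.4 CPM in siNT and 173, 226.9 and 351.1 CPM in siLTBP2. Of the tenascins, only *TNC* was expressed above 1 CPM, as *TNN* and *TNR* had a mean of at most 0.00721 CPM.

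Since *FN1*, *TNC*, *POSTN* and *TGFBI* are textbook TGF-beta targets, 17 response genes of that pathway were read beside them. Of the 16 tested, 3 rose, 5 fell and 8 did not pass (beside 9.76% higher and 9.51% lower over all genes tested), with a median log2 fold change of 0.04 (-0.01 over all genes tested). *TAGLN*, an actin-binding protein, rose from 84.3 ± 8.26 to 188 ± 51.7 CPM (SD, n = 3), *LTBP1* had a log2 fold change of 0.87 and *BHLHE40* one of 0.39. *IGFBP3* fell from 216 ± 22.1 to 69.1 ± 3.87 CPM (SD, n = 3, log2 fold change -1.64, adjusted p = 1e-05, edgeR). *SMAD6* (-0.95), *PMEPA1* (-1.11), *SKIL* (-0.36) and *TGFB1I1* (-0.30) fell as well. Their relatives *SMAD7* (-0.44, adjusted p = 0.329, edgeR) and *SKI* (0.04, adjusted p = 0.821, edgeR) did not pass. *COL1A1* was at 2278 ± 488 and 1958 ± 504 CPM (SD, n = 3), without passing. It passed with the replicate block (-0.23, adjusted p = 0.0225, edgeR). The calls of *SKIL*, *PMEPA1*, *TGFB1I1* and *BHLHE40* were each lost in 4 or 5 of the 6 fits without 1 library, with log2 fold changes from -0.48 to -0.27, from -1.52 to -0.75, from -0.33 to -0.26 and from 0.32 to 0.48. That of *PMEPA1* was also lost in DESeq2 with all libraries (-1.11, adjusted p = 0.0778).

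**Figure D5:**
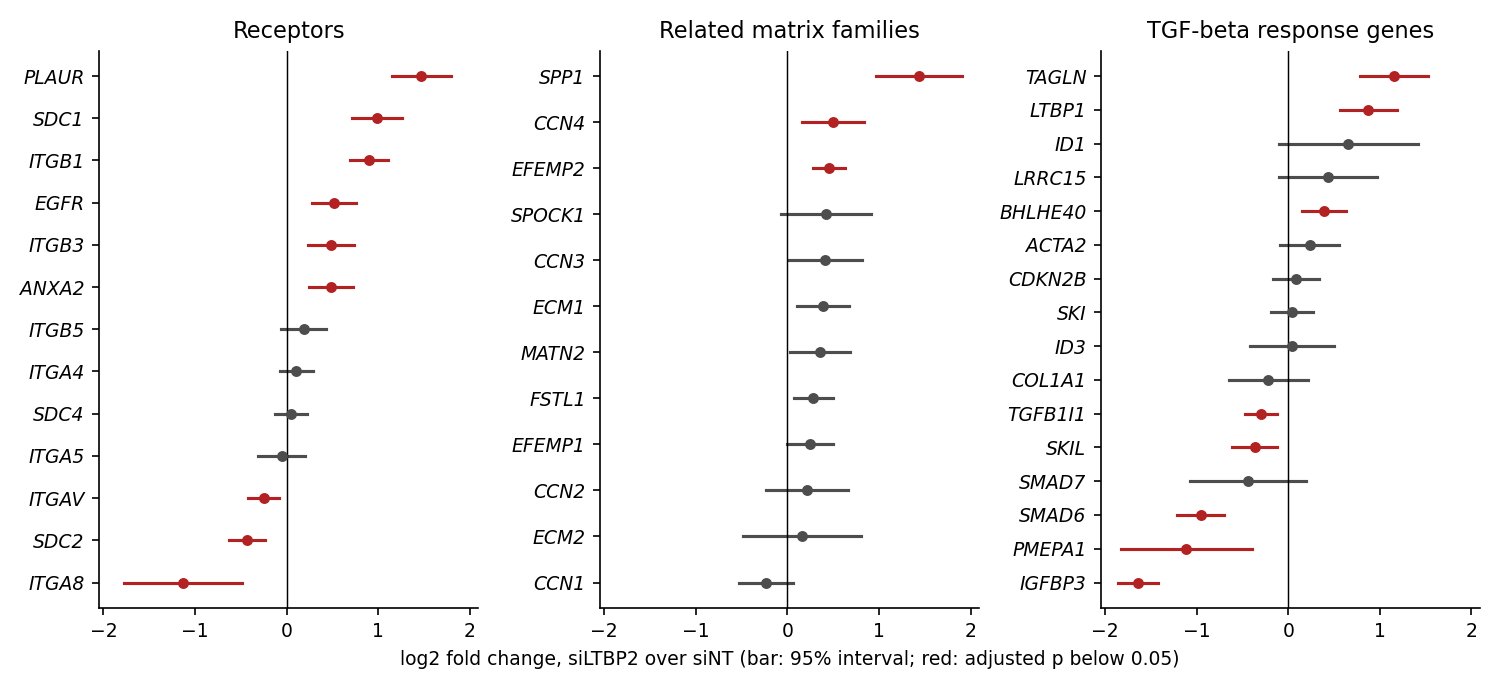
Log2 fold change of siLTBP2 over siNT with 95% intervals for the tested genes of 3 lists, receptors (left), related matrix families (middle) and TGF-beta response genes (right), with an adjusted p below 0.05 in red. Red points lie on both sides of 0 among the receptors and the TGF-beta response genes, and above 0 among the related families.

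The 3 genes whose profile over the 6 libraries lay nearest to that of *TNC*, by the root mean square difference of log2 CPM centered on the siNT mean among 12384 genes, were *NCEH1* (0.088), *STC1* (0.102) and *SOX9* (0.122). *NCEH1*, a cholesterol ester hydrolase, was at 98.7 ± 15.5 and 282 ± 40.8 CPM. *STC1*, a secreted glycoprotein hormone, was at 152 ± 38.9 and 434 ± 10.0 CPM. *SOX9*, a transcription factor of cartilage and of gut epithelium, was at 27.6 ± 3.72 and 75.9 ± 6.03 CPM (SD, n = 3). This likeness describes 6 libraries only.

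The word GCACCCA, chosen from an earlier search of these data over words in 3′ UTRs, was counted in the canonical 3′ UTR of each member. It was carried by 11.8% of 12303 coding genes tested. Of the 10 members only *SMOC2*, which had no counts, carried it (1 copy). *LTBP2*, the silenced gene, carried 1 copy as well.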

How the data were processed

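RNA was measured in 6 libraries of CCD18Co cells. The authors prepared stranded, ribosomal RNA depleted libraries, aligned paired reads to GRCh38 with STAR (2.7.1a in the submitters' processing notes) and counted reads per gene with HTSeq (0.11.2), and these raw counts were deposited. For the Ensembl release and the strand setting, no statement was found in the sources used here. These counts entered filterByExpr, TMM, glmQLFit and glmQLFTest of edgeR 4.0.16 in R 4.3.3, two-sided, unblocked, with Benjamini-Hochberg adjustment over 16920 genes. Intervals are 95% from the t distribution of the fit. The study used the likelihood ratio test, run here as an alternative beside DESeq2 1.42.0, other scalings and filters, the replicate block and leaving out each library. On simulated data for siLTBP2 against siNT (16626 genes run), the test called 65.4% of 107 genes changed by 1 on the log2 scale. It called 97.8% of 89 genes changed by 2, and 6.55% of its calls were false. Far fewer genes were changed there than were called in the real data, and smaller changes were not simulated. These shares therefore do not carry over directly to the real data.

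Lengths, exons and places were taken from GENCODE 44, in which 95.7% of 60462 matched genes had the deposited start, all 10 members among them. TPM by canonical length and the comparison with *SARM1* were chosen after seeing the data. The members and lists were chosen with earlier results of these data known. Named genes were *LTBP2*, the members, changed genes of each list with at most 3 others of high CPM, and the 3 genes most like the member of lowest p. *SARM1*, *PTPRB*, *SMAD7*, *SKI* and the marker genes, named after their values were seen, stand beside a result or count. No protein sequences were used here, and 1 gene was left out of the TGF-beta list and is not reported here.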

Additional observations from a re-analysis of the deposited data

How the results depend on the processing

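*LTBP2*, *FN1* and *TNC* kept their direction and call under every alternative run, with log2 fold changes from -1.89 to -1.61, from 0.67 to 0.82 and from 1.38 to 1.61 when 1 library was left out. *VTN* passed under the likelihood ratio test (-1.07, adjusted p = 0.0443), in DESeq2 (-1.07, adjusted p = 0.043) and with no low-count filter (-1.08), and lay between -1.38 and -0.75 with 1 library left out. *POSTN* passed with no low-count filter (1.00), and lay between 0.40 and 1.70 with 1 library left out. *TGFBI* lay between -0.38 and -0.16, *SPARC* between -0.02 and 0.18 and *TNXB* between -0.25 and 0.03, where *SPARC* reversed without siNT replicate 2 (-0.02) or siLTBP2 replicate 1 (-0.02) and *TNXB* without siNT replicate 2 (0.033). With no low-count filter, 4 members were changed and 2 deregulated, where 3872 of all 33596 genes (11.5%) were changed and 680 deregulated. *ITGA5* reversed without siNT replicate 1 (0.009) or 3 (0.002), lying between -0.17 and 0.009, and *CCN2* without siLTBP2 replicate 3 (-0.11), lying between -0.11 and 0.42. Of the related families, 5 genes were changed under the likelihood ratio test (22.5% of all genes tested), 5 in DESeq2 (21.1%) and 8 with no low-count filter (11.5% of 33596 genes). With 1 library left out, the changed genes numbered between 2 and 3 for the members and between 6 and 8 for the receptors. They numbered between 2 and 6 for the families and between 4 and 10 for the TGF-beta response genes. In these fits between 12.4% and 15.9% of all genes tested were changed, against 19.3% in the main fit. The members' summed share rose 1.33 times in counts, 1.17 times in TPM by union exon length and 1.15 times in TPM by canonical length. What causes these shifts was not tested.

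Between siNT and siLTBP2 libraries of the same number, deviations from the group means had correlations of 0.30 (replicate 1), 0.08 (replicate 2) and 0.43 (replicate 3). The main fit left the libraries unpaired, as planned, and the labels do not say whether libraries of the same number belong together. Apart from siNT replicate 2, each siNT library correlated best with the siLTBP2 library of its own number. With the replicate block, *VTN* (-1.06), *POSTN* (0.95) and *TGFBI* (-0.25) passed, so that 5 members were changed and 2 deregulated. The block also gave 10 changed genes of the receptors, 10 of the families and 13 of the TGF-beta response genes. It raised the calls over all 16920 genes tested as well, to 6131 changed (36.2%, against 19.3% in the main fit) and 636 deregulated (against 434). Counts were lowest for *POSTN*, *TNXB*, *VTN* and the 3 members below the filter, where counting error weighs most, and depth itself was not varied.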
